A study of Rattus norvegicus with 6 samples.

Results

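Glucose entry and the first step of glucose use were examined through 8 genes: the transporter genes Slc2a1, Slc2a2 and Slc2a3, the hexokinase genes Hk1, Hk2 and Hk3, and the glucose-6-phosphatase genes G6pc2 and G6pc3. They were taken by symbol from an RNA sequencing table of 18625 named genes, which gave values for 7 of the 8; G6pc2 is not analysed here. The samples were pancreatic islets of the rat, small groups of endocrine cells, with 3 libraries from fetuses at embryonic day 19 (E19) and 3 from pups after birth. The postnatal titles all name 2 weeks, while the age labels name postnatal weeks 2, 3 and 4 for replicates 1, 2 and 3. The labels used here give no strain, sex, genotype or treatment, and they do not say whether libraries came from separate animals or pools, so p-values measure the spread between these libraries, which may be technical.

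Glucose crosses the cell membrane through facilitative transporters of the SLC2A family and is then phosphorylated by hexokinases, which traps it in the cell. GLUT1 (Slc2a1) and GLUT3 (Slc2a3) and the hexokinases Hk1, Hk2 and Hk3 work near saturation at blood glucose (low Km, high affinity), whereas GLUT2 (Slc2a2) has a high Km, so that uptake through it follows the glucose concentration. Mature rodent beta cells, which secrete insulin, are known for GLUT2. Glucose-6-phosphatases reverse the phosphorylation in the endoplasmic reticulum, after carriers of the SLC37 family bring in the substrate.

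Levels are given as scaled CPM, that is the reads of a gene relative to the library's total, with that total adjusted so that libraries can be compared. The libraries held 26.1 to 37.8 M reads at E19 and 28.2 to 29.5 M after birth. The markers of beta cells were present in every library, and their summed level was 1712 to 4406 at E19 and 38595 to 66712 after birth, with 8 of 9 markers higher and none lower. Of 14 acinar markers (acinar cells make the digestive enzymes), 8 were higher and 1 lower, and their sum was 72493 to 110381 at E19 and 223100 to 656541 after birth, highest in postnatal replicate 1. Of all genes tested 30.0% were higher and 33.1% lower. The counts of markers here and below are to be read beside these shares. Fetal replicate 2 stood apart in hepatocyte markers, with a sum of 7942 against 319 and 401 in the other two fetal libraries. In such mixed tissue, fewer cells of a type and less RNA per cell cannot be told apart.

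Of the 7 genes with values, 6 passed the filter on low values (at least 1 scaled CPM in at least 3 libraries), and Hk3 did not. Slc2a2, Slc2a3 and Hk1 were higher after birth, Slc2a1 and Hk2 were lower, and G6pc3 did not pass the test (limma on log2(value + 1), Benjamini-Hochberg adjusted p under 0.05 over 12926 genes). Across all genes tested 63.1% were called, 30.0% higher and 33.1% lower, so a call alone says little about a single gene here. Of all calls 47.5% were higher, a share that was 25.9% when scaled by library total and 61.2% without the 20 highest genes. The values of the groups did not overlap for the same 5 genes, against 70.0% of all genes tested. In the transporter family Slc2a2 and Slc2a3 rose while Slc2a1 fell, and in the hexokinase family Hk1 rose while Hk2 fell.

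**Figure D1:**
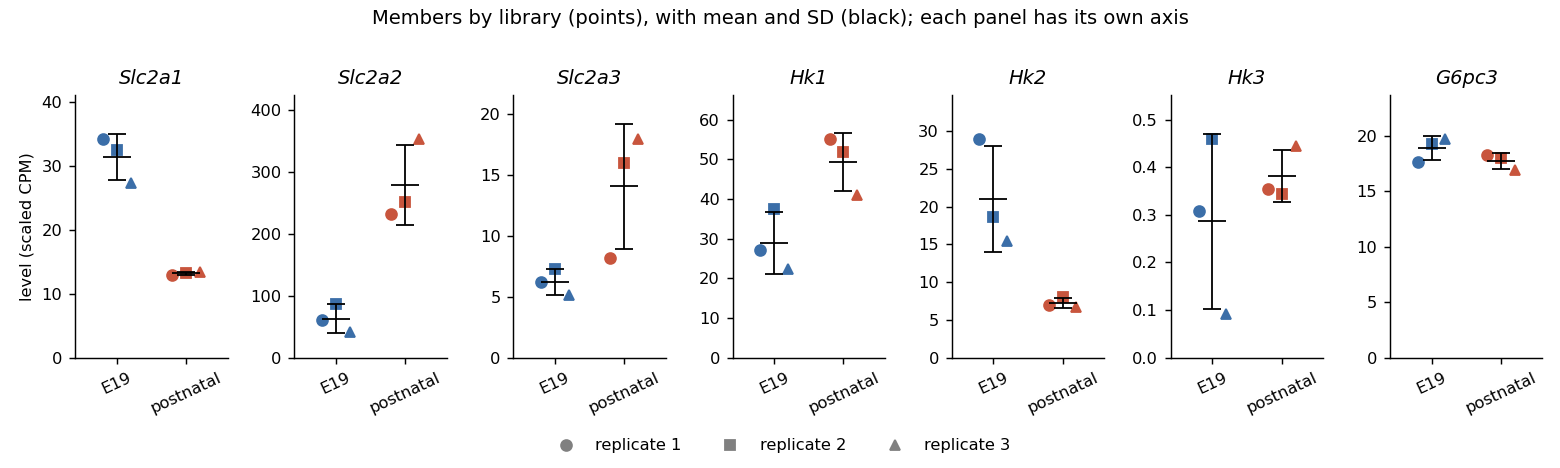
Level of each of the 7 genes in scaled CPM (vertical axis, starting at 0 and different in each panel) in the 3 E19 and 3 postnatal libraries (horizontal axis). Points are libraries, with the marker shape giving the replicate number, and the black lines are the mean and SD. The E19 and postnatal points are apart for Slc2a1, Slc2a2, Slc2a3, Hk1 and Hk2, and overlap for Hk3 and G6pc3.

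Slc2a2, the high-Km transporter gene, showed the largest difference of the set. It stood at 60.3, 86.9 and 40.8 scaled CPM in fetal replicates 1, 2 and 3 and at 232, 251 and 353 in postnatal replicates 1, 2 and 3. The lowest postnatal library was thus well above the highest fetal one. The means were 62.6 ± 23.2 and 279 ± 65.2 (SD, n = 3 each), and the log2 difference was 2.18 ± 0.27 (SE; limma adjusted p = 3.81e-04), or 4.52-fold on the log2(value + 1) scale. These values rest on 1322 to 3591 reads at E19 and 4590 to 10349 after birth. Hepatocytes also use GLUT2. Fetal replicate 2, with the high hepatocyte markers, had the highest fetal Slc2a2, and without it the log2 difference was 2.44. The same library had the highest fetal beta cell marker sum. The beta cell sums were 3147, 4406 and 1712 in fetal replicates 1, 2 and 3, and the hepatocyte sums 319, 7942 and 401. The parts of beta cells and hepatocytes in fetal Slc2a2 were not tested. Markers of alpha, delta and PP cells, the other hormone cells of the islet, were higher for 5 of 6 tested, with sums of 425 to 1356 at E19 and 20595 to 44905 after birth. All 6 mesenchymal markers were higher, with sums of 1474 to 2220 and 6625 to 11661. The part of these cells in the Slc2a2 rise was not tested.

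Slc2a1 encodes GLUT1, a transporter of fetal red blood cells, of blood vessels and of many other fetal and dividing cells. It stood at 34.3, 32.5 and 27.3 in fetal replicates 1, 2 and 3 and at 13.0, 13.2 and 13.4 in postnatal replicates 1, 2 and 3. The postnatal libraries lay within 1.03 times of each other. Their acinar marker sums ranged from 223100 to 656541, and the part of acinar cells in the Slc2a1 level was not tested. The log2 difference was -1.19 ± 0.12 (limma adjusted p = 1.40e-04), a 2.28-fold fall. Of 9 erythroid markers tested, 7 were lower after birth and none higher. The summed level of the 11 erythroid markers measured was 2655, 5342 and 1597 in fetal replicates 1, 2 and 3 and 541 to 854 after birth, where Hbe2 and Hbz were at 0. The 4 proliferation markers all fell, from sums of 3059 to 4162 to sums of 559 to 729. All 8 endothelial markers rose, from sums of 227 to 362 to sums of 675 to 1061. The part of these cell types in the Slc2a1 difference was not tested.

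Slc2a3 encodes GLUT3, best known as the transporter of neurons. It stood at 6.20, 7.26 and 5.12 in fetal replicates 1, 2 and 3 and at 8.20, 16.0 and 18.0 in postnatal replicates 1, 2 and 3. Postnatal replicate 1, labelled week 2, lay close to the fetal libraries, and the other postnatal libraries, labelled weeks 3 and 4, were higher. Each week is 1 library, and postnatal replicate 1 also had the highest acinar marker sum, so age and tissue content cannot be told apart. The groups did not overlap. The log2 difference was 1.01 ± 0.28 (limma adjusted p = 0.0135). The call ended without fetal replicate 3 (0.90; adjusted p = 0.0544) and without postnatal replicate 2 (0.89; adjusted p = 0.0511), and under scaling by library total (0.70; adjusted p = 0.146). Of 6 Schwann and neuronal markers tested, 4 were higher and none lower, and the sum over 7 was 23.6 to 31.6 at E19 and 43.9 to 76.2 after birth. Macrophage and granulocyte markers were higher for 5 of 11 tested, with none lower, beside 30.0% and 33.1% of all genes. The sum over 16 of these markers was 70.7 to 171 at E19 and 98.9 to 285 after birth. Their part in the Slc2a3 difference was not tested.

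The identity of the Slc2a3 reads is uncertain. A row named LOC100909595 had 209, 318 and 171 reads in fetal replicates 1, 2 and 3 and 176, 488 and 549 in postnatal replicates 1, 2 and 3. The Slc2a3 reads were 202, 300, 166, 162, 465 and 526 in the same order, between 92.0% and 97.1% of that row in every library. Of 11154 genes compared, this row had the pattern most like Slc2a3 (Pearson r = 0.999 over 6 libraries). Whether the same reads were counted in both rows is not given in the sources used here.

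Among the hexokinases, Hk1 rose and Hk2 fell. Hk1, the widely expressed form that binds to mitochondria, stood at 27.1, 37.6 and 22.3 in fetal replicates 1, 2 and 3 and at 55.2, 51.8 and 41.0 in postnatal replicates 1, 2 and 3. The lowest postnatal library exceeded the highest fetal one by little, and the log2 difference was 0.77 ± 0.20 (limma adjusted p = 0.0106). That call ended under scaling by library total (0.43; adjusted p = 0.158). Hk2, the form of muscle, fat and many dividing cells, stood at 29.0, 18.6 and 15.5 in fetal replicates 1, 2 and 3 and at 6.94, 8.05 and 6.76 in postnatal replicates 1, 2 and 3. Its fetal libraries spread 1.87-fold, with replicate 1 the highest, and its postnatal libraries 1.19-fold. The log2 difference was -1.37 ± 0.22 (limma adjusted p = 0.00112), a 2.59-fold fall, and -1.13 without fetal replicate 1. In the same libraries the proliferation markers fell, as given above, and adipocyte and muscle markers were higher for 3 of 4 tested, with sums over 8 genes of 58.9 to 206 at E19, where Lep was at 0, and 220 to 427 after birth. The smooth muscle gene Actg2 alone gave 146, 21.2 and 3.95 of the sums in fetal replicates 1, 2 and 3. Adipoq, among the 3 higher markers, passed the filter only through the postnatal group, so its call is no support for a difference. The part of these cells in the Hk2 fall was not tested.

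Hk3, the hexokinase of myeloid cells, was barely detected. It had 10, 19 and 3 reads in fetal replicates 1, 2 and 3 and 7, 10 and 13 in postnatal replicates 1, 2 and 3, or 0.0925 to 0.460 and 0.344 to 0.444 scaled CPM. The groups overlapped, and when the filter was dropped the log2 difference was 0.11 ± 0.11 (limma adjusted p = 0.427 over 16946 genes). At this depth no difference in Hk3 was detectable.

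G6pc3, the glucose-6-phosphatase found in most tissues, had the smallest difference of the 6 genes tested. It stood at 17.7, 19.3 and 19.8 in fetal replicates 1, 2 and 3 and at 18.3, 18.0 and 17.0 in postnatal replicates 1, 2 and 3. The groups overlapped. The log2 difference was -0.08 with a 95% interval from -0.33 to 0.16 (limma adjusted p = 0.503), and its sign turned with the scaling, to 0.0410 by the upper quartile and 0.14 without the 20 highest genes. The median of all genes moved with the scaling too, from -0.03 as deposited to 0.10 and 0.20. Relative to that median G6pc3 lay between -0.06 and -0.05 under all 5 scalings.

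The regions before the starts of the genes are shown so that genes of 1 family that moved in opposite directions can be compared. RefSeq (assembly GRCr8) gave such regions for 7 of the 8 symbols, and 250 bases before the start were searched on both strands for 5 motifs. These were ACGTG (the core bound by hypoxia-inducible factors), CACGTG (an E-box, which contains that core on both strands), GGGCGG (a GC box), TATAAA and TAATTA. Of the 33469 windows of this length, 16.6% held ACGTG, 5.59% CACGTG, 30.5% GGGCGG, 12.9% TATAAA and 4.86% TAATTA. The sequences below belong to the transporter and hexokinase genes with the largest rise and the largest falls, Slc2a2, Slc2a1 and Hk2, to Hk1, which rose and has a pair of listed starts, and to G6pc3, which did not pass the test. They read 5′ to 3′ on the gene's strand, and capitals mark any of the motifs on either strand.
Slc2a1, chr5:138002272-138002521, plus strand: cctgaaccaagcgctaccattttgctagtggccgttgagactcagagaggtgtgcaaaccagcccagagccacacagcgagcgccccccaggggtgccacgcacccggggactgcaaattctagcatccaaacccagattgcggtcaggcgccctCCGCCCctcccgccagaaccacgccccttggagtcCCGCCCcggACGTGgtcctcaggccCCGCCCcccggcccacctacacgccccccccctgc
Hk2, chr4:116841276-116841525, minus strand: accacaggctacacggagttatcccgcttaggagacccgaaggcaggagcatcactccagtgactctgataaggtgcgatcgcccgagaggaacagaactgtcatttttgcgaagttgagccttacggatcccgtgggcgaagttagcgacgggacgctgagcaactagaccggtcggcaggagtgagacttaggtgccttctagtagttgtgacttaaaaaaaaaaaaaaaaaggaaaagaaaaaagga
Hk1, chr20:30874815-30875064, minus strand: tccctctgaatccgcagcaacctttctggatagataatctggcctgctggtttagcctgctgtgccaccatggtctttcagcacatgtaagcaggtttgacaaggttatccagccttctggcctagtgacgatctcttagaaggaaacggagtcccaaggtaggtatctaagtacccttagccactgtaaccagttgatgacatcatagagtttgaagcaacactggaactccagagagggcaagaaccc
Hk1, chr20:30842073-30842322, minus strand: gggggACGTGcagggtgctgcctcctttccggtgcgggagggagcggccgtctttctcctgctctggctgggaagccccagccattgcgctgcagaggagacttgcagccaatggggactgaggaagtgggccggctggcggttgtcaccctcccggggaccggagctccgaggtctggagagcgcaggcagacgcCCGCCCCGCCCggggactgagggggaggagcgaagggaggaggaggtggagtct
Slc2a2, chr2:113540120-113540369, plus strand: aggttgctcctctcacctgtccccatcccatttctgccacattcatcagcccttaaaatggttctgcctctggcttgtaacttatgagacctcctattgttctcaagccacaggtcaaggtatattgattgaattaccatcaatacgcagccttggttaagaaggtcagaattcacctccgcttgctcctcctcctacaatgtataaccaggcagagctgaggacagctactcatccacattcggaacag
G6pc3, chr10:87646899-87647148, plus strand: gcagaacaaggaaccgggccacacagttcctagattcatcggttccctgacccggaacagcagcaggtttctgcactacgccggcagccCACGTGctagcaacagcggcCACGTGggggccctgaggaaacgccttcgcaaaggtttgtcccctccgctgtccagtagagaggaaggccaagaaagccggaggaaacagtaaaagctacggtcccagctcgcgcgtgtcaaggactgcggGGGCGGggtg
The Slc2a1 window held 1 ACGTG, 51 bases before the start, and 3 GC boxes, and 68.4% of its bases were G or C, against a median of 51.2% over all windows. The Hk2 and Slc2a2 windows held none of the 5 motifs and had 49.6% and 47.2% G or C. Of the Hk1 windows, one held none and had 48.8% G or C, and the other held 1 ACGTG and 2 GC boxes at 70.0% G or C. Motifs were thus found before genes that rose and before genes that fell. The G6pc3 window held 2 CACGTG and 1 GC box at 61.6% G or C. A match is a description of letters, not of binding.

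The opposite moves within each family are plainest as ratios of 2 levels within 1 library, which do not depend on the scaling between libraries. A ratio of 2 genes is not corrected for transcript length, so only its change between groups is read. Of 12 ratios formed, 10 had groups that did not overlap. Each of these 10 had p = 0.1 in a two-sided exact permutation test, which is as low as this design can go, and 0.12 when adjusted over the 12 ratios (Benjamini-Hochberg). Of the 12, 4 were added after values were seen: Hk1 and Hk2 to Slc2a2, and Hk1 and Slc2a3 to Slc30a8. In Slc2a1 to Slc2a2, Slc2a1 to Slc2a3, Hk2 to Hk1 and Hk2 to Slc2a2, the 2 levels were already apart in opposite directions. Those ratios could not overlap between groups, so their separation is no further support. No share over other pairs of genes is given.

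The ratio of low-Km Slc2a1 to high-Km Slc2a2 had the largest difference among the transporter ratios. It was 0.569, 0.375 and 0.671 in fetal replicates 1, 2 and 3 and 0.0558, 0.0526 and 0.0378 in postnatal replicates 1, 2 and 3. The geometric means were 0.523 and 0.0480, a 10.9-fold difference (log2 -3.44, pooled SD 0.37), and the lowest fetal ratio was far above the highest postnatal one. Counted in reads, Slc2a1 made up 25.7% to 37.3% of the reads of the 3 transporter genes at E19 and 3.47% to 5.11% after birth. Wilson 95% intervals, which cover counting error only, ran from 24.5% to 26.9% for the lowest fetal library and from 4.54% to 5.76% for the highest postnatal one.

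Slc2a3 rose in level, while its ratio to Slc2a2 was lower after birth. That ratio was 0.103, 0.0835 and 0.126 in fetal replicates 1, 2 and 3 and 0.0353, 0.0639 and 0.0508 in postnatal replicates 1, 2 and 3, a log2 difference of -1.08 (pooled SD 0.37). Between the low-Km forms, Slc2a1 to Slc2a3 went from 5.52, 4.48 and 5.34 to 1.58, 0.824 and 0.743 (log2 -2.37).

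The ratio of Hk2 to Hk1 was 1.07, 0.495 and 0.697 in fetal replicates 1, 2 and 3 and 0.126, 0.155 and 0.165 in postnatal replicates 1, 2 and 3. The postnatal ratio was 4.86-fold lower (log2 -2.28, pooled SD 0.42). Hk2 thus went from between 32.8% and 51.4% of the hexokinase reads of Hk1, Hk2 and Hk3 at E19 to between 11.1% and 14.0% after birth, while Hk3 was under 1% in every library (highest 0.921%). The ratio of Hk3 to Hk1 overlapped between groups (exact permutation p = 0.8), while with a pseudocount of 1, which is above every Hk3 level, its log2 difference was -0.66 (exact permutation p = 0.1).

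Set against the high-Km transporter, Hk1 and Hk2 were both lower after birth. Hk2 to Slc2a2 had geometric means of 0.340 at E19 and 0.0264 after birth, a 12.9-fold difference. Hk1 rose in level, while Hk1 to Slc2a2 was 0.449, 0.432 and 0.546 at E19 and 0.237, 0.207 and 0.116 after birth, or 2.65-fold lower (log2 -1.41, pooled SD 0.41).

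Slc2a2 was also set against genes that mark beta cells. Slc30a8 encodes the zinc transporter of insulin granules. The ratio of Slc2a2 to Slc30a8 was 0.905, 1.13 and 0.874 in fetal replicates 1, 2 and 3 and 0.985, 1.01 and 0.932 in postnatal replicates 1, 2 and 3. All postnatal values lay inside the fetal range, and the log2 difference was 0.02 with a pooled SD of 0.15 (exact permutation p = 0.9). Against the summed insulin genes Ins1 and Ins2, Slc2a2 stood at 0.0222, 0.0225 and 0.0294 at E19 and at 0.00646, 0.00629 and 0.00570 after birth, a 3.98-fold difference. Against Nkx6-1, a beta cell transcription factor gene that did not pass the test, it stood at 2.12, 4.20 and 2.17 at E19 and at 11.4, 7.65 and 7.78 after birth, or 3.27-fold higher. Hk1 to Slc30a8 was 2.62-fold lower after birth and Slc2a3 to Slc30a8 2.09-fold lower.

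**Figure D2:**
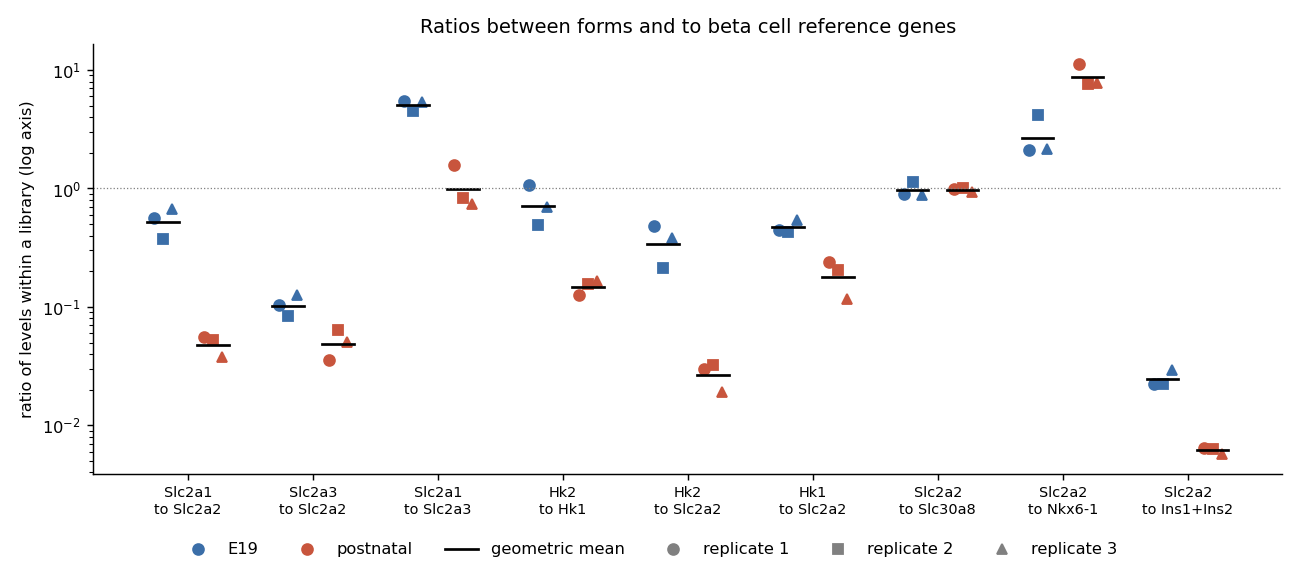
Ratio of 2 levels within a library (vertical axis, log scale, no unit) for 9 pairs of genes (horizontal axis). Points are libraries, blue for E19 and red for postnatal, with the marker shape giving the replicate number, and black lines are geometric means. Slc2a2 to Slc30a8 is near 1 in all 6 libraries, whereas the ratios of Slc2a1, Slc2a3, Hk1 and Hk2 to Slc2a2 are lower in every postnatal library than in every E19 library.

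Of 10 other transporter genes tested, 5 were higher and 1 lower, beside 30.0% and 33.1% of all genes. The higher count was 3 with a filter of 5 and 3 under scaling by library total. Slc2a4, the insulin-responsive transporter gene of muscle and fat, had the largest rise, from 5.65, 2.08 and 0.832 in fetal replicates 1, 2 and 3 to 9.37, 12.5 and 12.1 in postnatal replicates 1, 2 and 3 (log2 1.87 ± 0.42; limma adjusted p = 0.00549). Slc5a1, a sodium-coupled glucose transporter gene, rose from 0.403 ± 0.191 to 3.10 ± 0.334 (1.55 ± 0.17), but it passed the filter only through the postnatal group, so its call is no support for a difference. Slc2a8, Slc2a5 (a fructose transporter gene) and Slc2a6 rose by 1.20, 0.89 and 0.44 on the log2 scale. Slc2a12 was the only one of the 10 to fall, from 13.7 ± 3.42 to 7.85 ± 0.664 (-0.71 ± 0.18).

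Of 8 other genes of hexose phosphorylation and glucose-6-phosphate transport tested, 3 were higher and 2 lower, beside 30.0% and 33.1% of all genes. The higher count was 1 under scaling by library total and 5 without the 20 highest genes. Slc37a4, the carrier that brings glucose-6-phosphate to the phosphatases, stood at 42.4, 50.8 and 50.4 in fetal replicates 1, 2 and 3 and at 74.1, 71.3 and 96.3 in postnatal replicates 1, 2 and 3 (0.73 ± 0.14; limma adjusted p = 0.00261). Slc37a1, a related carrier gene, had the largest rise of the list (0.92 ± 0.12). Galk1, encoding galactokinase, had the largest fall, from 51.0 ± 6.38 to 16.6 ± 0.742 (-1.55 ± 0.12), and Adpgk, whose enzyme phosphorylates glucose with ADP, fell by 0.77. G6pc, the phosphatase gene of liver, failed the filter, at 0.123 to 0.750 and 0.820 to 1.77.

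All 6 pentose phosphate pathway genes tested fell, from H6pd (-0.34 ± 0.13) to Tkt, the transketolase gene, which went from 470 ± 53.6 to 166 ± 11.7 (-1.49 ± 0.12). The median of the list was -0.87, beside -0.03 over all genes tested. Under the 21 alternatives 4 to 6 of them were lower and none higher. Of 11 upper glycolysis genes, 5 fell and 3 rose, beside 33.1% and 30.0% of all genes, and 1 was higher under scaling by library total. Gpi, whose enzyme takes up glucose-6-phosphate for glycolysis, fell by 0.68 and the phosphofructokinase gene Pfkl by 0.81, while Fbp2, a fructose-bisphosphatase gene, had the largest rise (1.36 ± 0.28). Of 16 genes of the glycogen and hexosamine routes, 8 fell and 4 rose, beside the same shares. Pygl, the liver form of glycogen phosphorylase, fell from 81.4 ± 26.3 to 7.52 ± 0.757 (-3.23 ± 0.23), and Gfpt2, an enzyme gene at the entry to hexosamine synthesis, rose from 8.53 ± 0.748 to 55.6 ± 18.5 (2.52 ± 0.22). Leaving out any 1 library left 2 genes of that list higher instead of 4, as did the scaling by library total.

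Regulators known to act on these genes moved both ways. Of 21 tested, 4 were higher, 6 lower and 11 not called, beside 30.0% higher and 33.1% lower of all genes. The balance turned with the scaling, to 7 higher and 6 lower by the upper quartile and 8 higher and 4 lower without the 20 highest genes. Mafa, a beta cell transcription factor gene, had the largest rise (3.33 ± 0.28) and Egln3, an oxygen sensor gene that is itself switched on in hypoxia, the largest fall (-1.61 ± 0.25). The hypoxia factor gene Hif1a stood at 93.3 to 97.2 and 94.3 to 119 and did not pass, while its relative Epas1 rose from 10.8 ± 2.85 to 61.5 ± 14.5 (2.40 ± 0.23) in libraries whose endothelial markers all rose, whose part in the Epas1 difference was not tested. Mafa and Pdx1 are also among the beta cell markers. Pdx1 rose by 0.45, Hnf4a fell by 0.56, and Foxa2 did not pass (53.5 ± 4.41 and 52.2 ± 6.38).

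**Figure D3:**
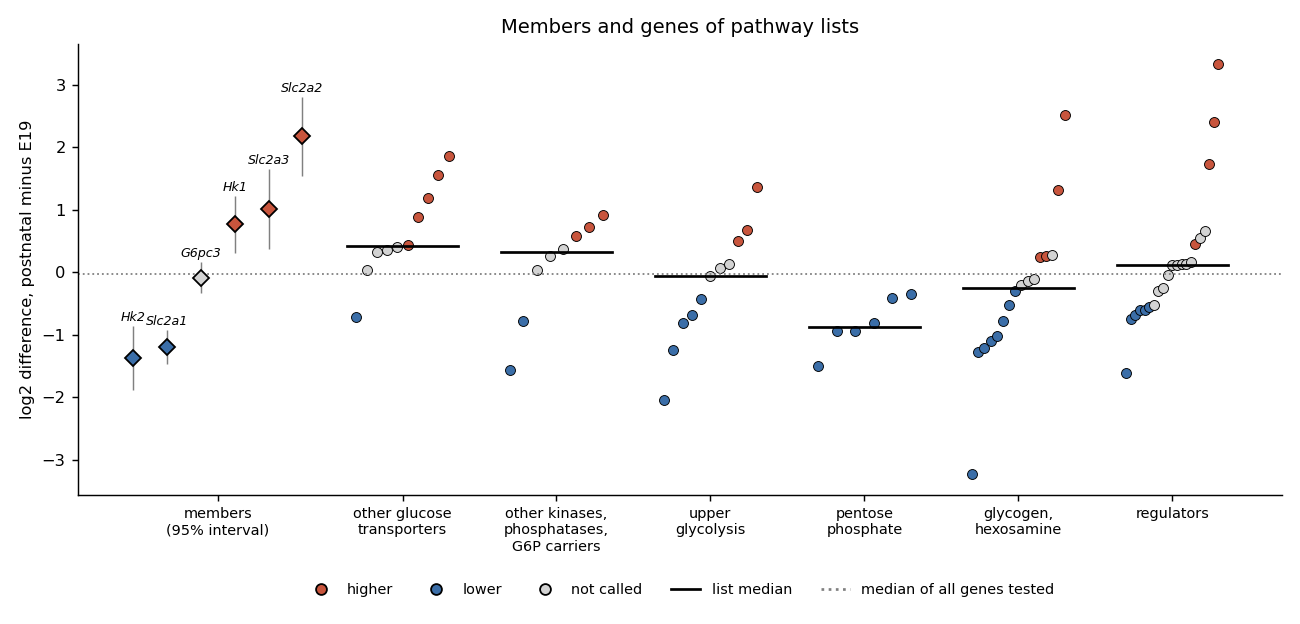
Log2 difference, postnatal minus E19, on the log2(value + 1) scale (vertical axis) for the 6 genes tested (diamonds, with 95% intervals) and for the genes of 6 pathway lists (circles). Red is higher and blue lower at a limma adjusted p under 0.05, grey is not called, black lines are list medians, and the dotted line is the median of all genes tested (-0.03). All 6 pentose phosphate circles are blue, and the other lists hold both colours.

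For each gene tested, the 2 genes with the most similar profile over the 6 libraries are given as a description, since all 6 points come from 2 groups and many genes share a group difference. Slc2a1 was most like Mcu, the mitochondrial calcium uniporter gene (Pearson r = 0.999), and Igfbpl1 (0.998). Igfbpl1 stood at 3.82 to 5.62 at E19 and 0 to 0.172 after birth, and passed the filter only through the fetal group. Of the 11154 genes compared with Slc2a1, 1007 had r above 0.95. Slc2a2 was most like Maob, encoding monoamine oxidase B (0.999), and Il6r, the interleukin 6 receptor gene (0.998). After LOC100909595, Slc2a3 was most like the small heat shock protein gene Hspb8 (0.997). Hk1 was most like LOC690617 (0.993) and the nucleoside transporter gene Slc29a3 (0.991), with 32 genes above 0.95. Hk2 was most like Tprn and Mapk1ip1l (0.991 each), and G6pc3 most like Ctu1 (0.980) and Elf1 (0.979).

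**Figure D4:**
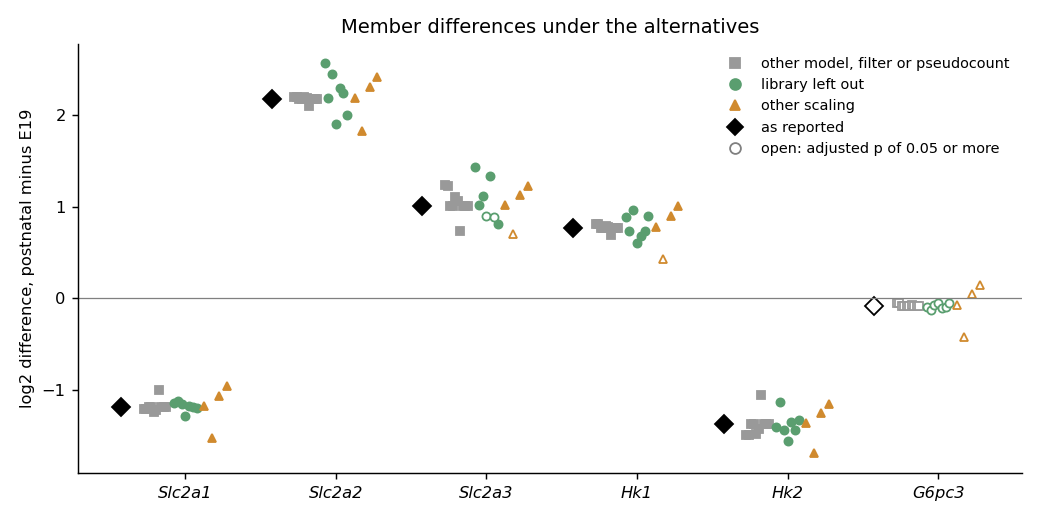
Log2 difference, postnatal minus E19 (vertical axis), of the 6 genes tested under the reported analysis (black) and 21 alternatives: another model, filter or pseudocount (grey), libraries left out (green) and another scaling (orange). Open markers have an adjusted p of 0.05 or more. Slc2a1, Slc2a2 and Hk2 keep filled markers on 1 side of 0 throughout, Slc2a3 has 3 open alternatives and Hk1 has 1, and G6pc3 lies on both sides of 0.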

How the data were processed

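RNA sequencing libraries of 3 E19 and 3 postnatal rat islet samples were made from total RNA with a stranded kit that depletes ribosomal RNA, per the labels' protocols. TopHat2 2.0.8b and edgeR 3.30.3 are named, without roles, per the submitters' processing notes; the sources used here name no build, annotation, counter or strand setting, so reads of overlapping genes may be mixed. The authors deposited 1 normalized signal per gene and library. In the deposited signal 100% of the values are whole reads times 1 constant per library (tolerance 0.001 reads), and recomputed TMM factors (0.677 to 1.25) match those constants, so it is called scaled CPM. A row without a gene name, at most 3.19e-05% of a library, was left out of tests. A count of 3 reads was worth 0.0726 to 0.152 scaled CPM.

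Groups follow the titles. The test was limma (3.58.1, under R 4.3.3; trend, two-sided) of log2(value + 1) over genes with at least 1 in at least 3 libraries, with Benjamini-Hochberg adjustment and calls at an adjusted p under 0.05. Fold changes on this scale understate the change of low genes. Ratios used exact permutation tests. Of 211 entries in pathway and marker lists, 184 were matched, older symbols through RefSeq (GRCr8). Named were all members, the largest called rise and fall of each list, list genes used in a ratio, and the 2 most similar genes per member with a mean of at least 5 in one group. Other pathway genes (Slc2a5, Slc2a6, Slc2a8, Slc5a1, Slc37a4, Adpgk, G6pc, Gpi, Pfkl, Hif1a, Epas1, Pdx1, Hnf4a, Foxa2, H6pd) were chosen after their values were seen. Some genes that this rule covers are not reported here. The members and lists were chosen with earlier results of these data known. Within a group, every pair of libraries differed by more than counting error (49.7 to 411 as chi-square over its degrees of freedom). Alternatives were other pseudocounts, filters and scalings, a robust trend, a replicate block, week of age as a covariate, libraries left out, and count tests of the recovered reads (DESeq2 1.42.0, edgeR 4.0.16).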

Additional observations from a re-analysis of the deposited data

How the results depend on the processing

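Slc2a1, Slc2a2 and Hk2 kept direction and call under all 21 alternatives, with log2 differences from -1.52 to -0.96, 1.83 to 2.56 and -1.69 to -1.06. Scaling by library total, under which the median of all genes was -0.36, ended the calls of Slc2a3 (0.70; limma adjusted p = 0.146) and Hk1 (0.43; limma adjusted p = 0.158), which relative to that median were 1.06 and 0.78. It gave 1780 higher and 5088 lower genes, against 3874 and 4278 as reported and 5065 and 3213 without the 20 highest genes, and 10 higher pathway genes against 19. The Slc2a3 call also ended without fetal replicate 3 (0.90) and without postnatal replicate 2 (0.89), and leaving out 1 library gave 0.81 to 1.33. The cause was not tested. The sign of G6pc3 turned by the upper quartile (0.0410) and without the 20 highest genes (0.14). Leaving out 1 library moved the log2 ratio of Hk3 to Hk1 between -0.608 and 0.171 and that of Slc2a2 to Slc30a8 between -0.0541 and 0.134; without fetal replicate 2 and postnatal replicate 1 together, Hk3 to Hk1 was 0.30, and with a pseudocount of 1 it was -0.66. The labels used here do not say whether a replicate number marks a pair of samples. Same-numbered libraries had deviations correlated at -0.21, 0.10 and -0.25, and the other pairs of libraries between -0.36 and 0.43. With 3 libraries per group these values cannot decide whether samples were paired. With the replicate block 3563 genes were higher and 3863 lower, and no call of the 6 genes changed (adjusted p of Slc2a3 0.0210 and of Hk1 0.00709). Hk3, at 3 to 19 reads, is limited by depth.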
